A study of Mus musculus with 12 samples.

Results

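The mouse beta-like globin genes are Hbb-y, Hbb-bh1, Hbb-bh2, Hbb-bh0, Hbb-bs and Hbb-bt, which were selected by symbol from the expression tables. These 6 genes were found among 55367 symbols, and each was listed in all 12 libraries. The cells were G1E-ER4, a clonal erythroid progenitor line of the mouse, and their polyadenylated RNA was sequenced. The line has no functional Gata1 gene of its own and expresses a fusion of GATA1 with part of the estrogen receptor. All 4 groups received 100 nM β-estradiol, which activates the fusion protein and starts red cell differentiation, and were harvested 24 h later. The control group received nothing else. From the start of differentiation, the DTPA group had 50 µM DTPA to lower zinc, and the DFO group had 50 µM DFO to lower iron. The SA group had 0.2 mM SA, an inhibitor of the heme synthesis enzyme ALAD, to lower protoporphyrin. The labels give 3 biological replicates per group. Every cell in the study therefore shares the missing endogenous factor, the transgene and the estradiol, and no library is from an animal or from cells without estradiol. For the SA group the treatment protocol names DFO where the titles name SA, and the titles were followed.

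Hemoglobin joins alpha-like and beta-like globin chains around heme. In the mouse, primitive red cells of the yolk sac use the embryonic beta-like genes Hbb-y and Hbb-bh1, and definitive red cells of the fetal liver and bone marrow use the adult genes Hbb-bs and Hbb-bt. All are driven by a shared locus control region, a group of enhancers that lies beyond Hbb-y, and in definitive cells the repressor BCL11A silences the embryonic genes while GATA1 and KLF1 activate the adult ones. Hbb-bh2 is a weakly expressed gene of the cluster and Hbb-bh0 is annotated as a pseudogene.

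On the mm10 build (GRCm38) with the GENCODE M21 annotation the members occupy 40.7 kb of chromosome 7, from 103812524 to 103853216, all on the minus strand. In the order of transcription Hbb-y lies at 103851749 to 103853216, Hbb-bh0 at 103850020 to 103850148, Hbb-bh1 at 103841637 to 103843164, Hbb-bh2 at 103839124 to 103840520, Hbb-bs at 103826534 to 103828096 and Hbb-bt at 103812524 to 103813996. The start of Hbb-bh1 is 10.05 kb from that of Hbb-y, and the starts of Hbb-bs and Hbb-bt are 25.12 and 39.22 kb from it. Hbb-bh0 has 1 exon of 129 bases, and each of the other 5 members has 3 exons and 441 coding bases.

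The coding starts are shown as an example of how alike the members are, since a read within shared sequence cannot be assigned to a single member. The first 90 coding bases from the GENCODE M21 transcripts follow, with bases that differ from Hbb-bs in capitals.
Hbb-bs: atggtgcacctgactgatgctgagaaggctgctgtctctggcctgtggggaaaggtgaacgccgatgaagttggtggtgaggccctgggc
Hbb-bt: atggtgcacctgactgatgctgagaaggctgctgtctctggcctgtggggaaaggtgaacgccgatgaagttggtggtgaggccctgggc
Hbb-y: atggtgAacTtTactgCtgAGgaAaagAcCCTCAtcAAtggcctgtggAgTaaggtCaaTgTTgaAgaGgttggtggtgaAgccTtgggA
Hbb-bh1: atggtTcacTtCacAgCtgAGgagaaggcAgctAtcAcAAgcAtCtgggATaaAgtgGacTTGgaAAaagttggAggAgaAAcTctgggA
Hbb-bh2: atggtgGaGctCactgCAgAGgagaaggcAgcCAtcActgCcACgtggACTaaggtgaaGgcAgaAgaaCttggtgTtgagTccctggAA

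Within this stretch Hbb-bt does not differ from Hbb-bs, while Hbb-y differs at 26 positions, Hbb-bh1 at 29 and Hbb-bh2 at 25. Over the whole coding sequence Hbb-bs and Hbb-bt are identical at 440 of 441 bases (99.8%). The embryonic pair Hbb-y and Hbb-bh1 share 76.4%, and Hbb-bs shares 74.4% with Hbb-y, 73.9% with Hbb-bh1 and 70.3% with Hbb-bh2. Of the 50-base windows of the Hbb-bt transcript, 58.3% occur letter for letter in Hbb-bs, and no 50-base window of Hbb-y, Hbb-bh1, Hbb-bh2 or Hbb-bh0 occurs in another annotated gene. The split of reads between Hbb-bs and Hbb-bt is therefore uncertain, and the embryonic values do not share that limit at this length.

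Promoters were given in RefSeq (GRCm38.p6) for 4 of the 6 members, Hbb-y, Hbb-bs, Hbb-bt and Hbb-bh2. The 130 bases before the RefSeq start are printed for Hbb-y and for both adult genes, so that the elements of the 2 classes can be compared. For all 3 the RefSeq start lies downstream of the GENCODE start. Capitals mark every match, on either strand, to any of 5 motifs. The motif read by KLF1 was searched as CACCC. The NF-Y box was searched as CCAAT. For BCL11A the letters were TGACCA. For the GATA factors they were AGATAA. Last came an element like the TATA box, searched as ATAAA.
Hbb-y, chr7:103853208-103853337, minus strand: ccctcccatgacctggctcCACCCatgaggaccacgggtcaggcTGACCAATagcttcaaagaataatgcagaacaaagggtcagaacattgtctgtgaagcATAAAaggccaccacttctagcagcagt
Hbb-bs, chr7:103827929-103828058, minus strand: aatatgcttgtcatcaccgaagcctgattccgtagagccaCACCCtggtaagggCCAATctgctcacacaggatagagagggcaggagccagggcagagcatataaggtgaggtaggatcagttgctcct
Hbb-bt, chr7:103813924-103814053, minus strand: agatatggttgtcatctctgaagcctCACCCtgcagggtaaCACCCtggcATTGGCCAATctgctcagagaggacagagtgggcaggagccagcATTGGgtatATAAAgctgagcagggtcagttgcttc

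In Hbb-y the BCL11A motif, at 86 to 81 bases before the start, overlaps the NF-Y box at 83 to 79. The BCL11A letters were in none of the other 3 promoters over the 250 bases searched, and they were in 11.4% of 32851 RefSeq mouse promoters of that length. Hbb-y and Hbb-bs each held 1 KLF1 motif and 1 NF-Y box, and Hbb-bt held 3 of each, against 52.0% of all promoters with the KLF1 motif and 33.8% with the NF-Y box. The GATA motif was in Hbb-bs, at 210 to 205 bases before the start, and in Hbb-bh2, and in 9.99% of all promoters. The TATA-like element was in Hbb-y, Hbb-bt and Hbb-bh2, and in 37.3% of all promoters. In Hbb-bh2 it lies at 165 to 161 bases before the start, where it overlaps the GATA motif. The Hbb-bs promoter printed above holds the letters tataag, which a search for ATAAA does not match. The lack of a match there therefore does not show that Hbb-bs lacks such an element. These matches describe the letters and do not show that a factor binds there.

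The deposited values are TPM, a share of all transcripts in the library that is scaled by gene length, so that levels can be set between genes. Whole reads could be recovered from them, and the libraries held from 19861985 to 24336691 reads, so 1 read per kilobase of exon was worth 0.124 to 0.160 TPM. Replicates of a group differed by more than sampling noise in every pair, and no library was a copy of another. Of 13 erythroid markers, among them Slc4a1 and Alas2, none was at 0 in any group. Levels were compared as log2(TPM + 1) with limma over 11917 genes that reached 1 TPM in at least 3 libraries, and every p given below is adjusted by Benjamini and Hochberg over those genes, with 0.05 as the threshold. All 6 members passed that filter. Hbb-bh2 passed through its DTPA libraries alone, and Hbb-bh0 through those and single reads elsewhere, so these 2 are described by their reads, without a test. The 3 comparisons with control share the same control libraries and are not independent of each other. As the labels do not say how the biological replicates were separated, the p-values measure only the spread between these libraries. In a bulk library, fewer cells of a type and less RNA per cell cannot be told apart.

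Hbb-bh1, the more abundant embryonic beta-like gene, was the member that moved most with DTPA and moved the other way with DFO and SA. In control it was at 80.1, 80.3 and 79.1 TPM. With DTPA it was at 8294, 7915 and 8645 TPM, which put it between the 10th and 12th most abundant symbol of each library, where in control it had ranked 2213 to 2253. All DTPA libraries lay far above all others, and DTPA against control was the highest log2 fold change of the 11917 genes tested (6.68, SE 0.0947, adjusted p = 1.95e-13, a 104-fold ratio of means). With DFO Hbb-bh1 was at 32.7, 33.2 and 26.1 TPM, and it fell by 1.36 in log2 (adjusted p = 1.94e-05). With SA it was at 11.9, 12.1 and 9.48 TPM, and it fell by 2.74 (adjusted p = 3.14e-08), the second-lowest change of all genes tested. Neither group overlapped control or the other, and SA lay below DFO by 1.38 in log2 (adjusted p = 5.83e-06).

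Hbb-y, the other gene of primitive red cells, followed the same order of groups at a lower level. Its control libraries held 15.5, 16.0 and 13.3 TPM (71, 77 and 59 reads), and its DTPA libraries held 677, 601 and 673 TPM (3050, 3078 and 3422 reads). The rise of 5.36 in log2 (SE 0.224, adjusted p = 1.35e-09) was the next highest of all genes after Hbb-bh1. With DFO it stood at 7.68, 3.29 and 7.92 TPM (33, 13 and 37 reads), below every control library, and it fell by 1.20 (adjusted p = 0.00692). With SA it stood at 0.460, 0.443 and 0.725 TPM, which are only 2, 2 and 3 reads, and it fell by 3.37 (adjusted p = 2.23e-06), the lowest log2 fold change of the 11917 genes. Because 1 is added to each value, that change understates the ratio. The 7 reads of the SA group against 207 in control give a ratio of 27.8, with a 95% interval of 13.2 to 70.0 that covers counting error only. SA lay below DFO by 2.17 in log2 (adjusted p = 9.28e-05), and no library of the SA group reached the lowest DFO library.

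**Figure D1:**
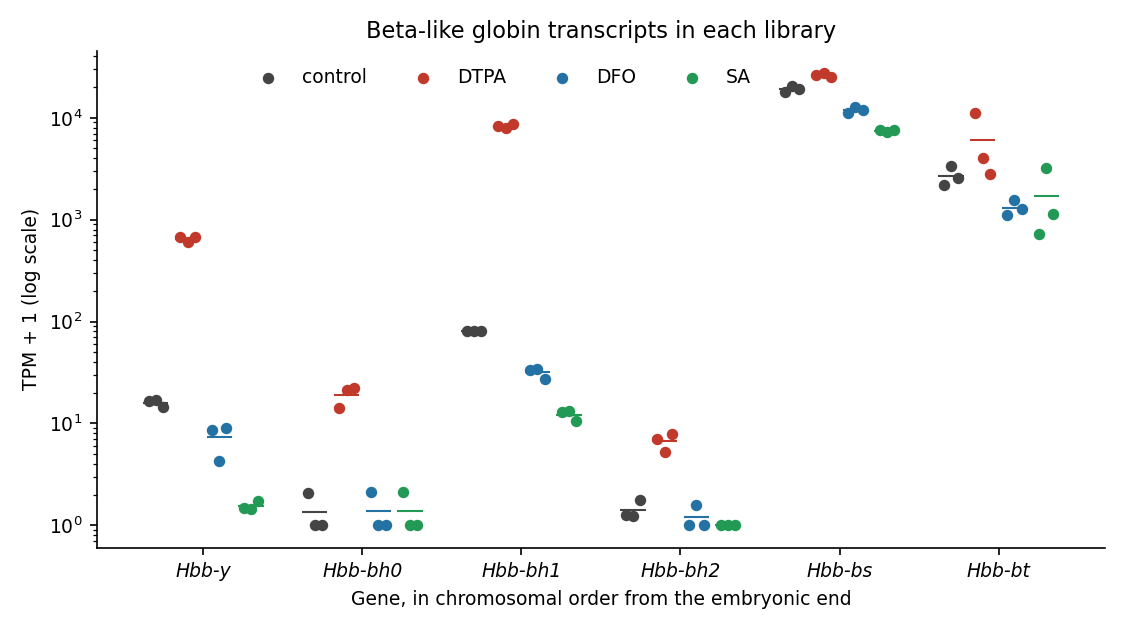
Level of each beta-like globin in each of the 12 libraries, as TPM + 1 on a log axis, with genes in chromosomal order from the embryonic end. Each point is 1 library and each bar is the mean of the 3 libraries of a group. For Hbb-y and Hbb-bh1 the 4 groups do not overlap, and for Hbb-bt the DTPA and SA groups each have 1 library well above the other 2.

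The weak members were detected mainly with DTPA. Hbb-bh2 had 24, 19 and 31 reads in the DTPA libraries (6.04, 4.21 and 6.91 TPM), 1, 1 and 3 in control, 0, 2 and 0 with DFO and none in any SA library. The 74 DTPA reads against 5 in control are a ratio of 13.9 with a counting interval of 5.70 to 44.1, and against 2 with DFO the ratio is 32.5 with an interval of 8.68 to 273. Against SA, with no read, the ratio is 21.8 when 3 reads over the SA group (0.262 TPM) are taken as the limit that a count of 0 allows, and the exact interval, which also covers the counting error of the 74 reads, puts it at least 17.3-fold higher. Between the other 3 groups no difference in Hbb-bh2 was detectable at this depth. The 2 DFO reads against 5 in control give an interval of 0.0408 to 2.62 for the ratio of DFO to control. For SA to control the interval reaches up to 1.16, although each control library held a read and no SA library did. For DFO to SA the lower limit is 0.189.

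The pseudogene Hbb-bh0 had 12, 21 and 22 reads with DTPA and 1, 0 and 0 in each other group. Its 55 reads against 1 in control are a ratio of 51.7 with a counting interval of 8.90 to 2079, so its size is poorly fixed. At 129 bases 1 read is worth about 1 TPM here, and its DTPA level of 18.1 ± 4.42 TPM (SD, n = 3) rests on fewer reads than the 5.72 ± 1.38 TPM of Hbb-bh2. No stretch of 50 bases of Hbb-bh0 is in another annotated gene, and whether these reads come from a transcript of its own or from RNA that runs on from a neighbouring gene was not tested. The other pseudogene of the cluster, Hbb-bh3, which lies between Hbb-bh2 and Hbb-bs and is not a member, had 2, 1 and 0 reads with DTPA.

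Hbb-bs, the main adult gene, changed in the same directions as the embryonic genes over a much narrower range. Its control libraries were at 18083, 20655 and 18965 TPM, and its DTPA libraries were at 26156, 27318 and 25167 TPM. Every DTPA library lay above every control library, and the rise was 0.45 in log2 (SE 0.0580, adjusted p = 2.90e-05, 1.36-fold). With DFO it was at 11054, 12849 and 12022 TPM and fell by 0.68 (adjusted p = 7.11e-05). With SA it was at 7506, 7242 and 7609 TPM and fell by 1.37 (adjusted p = 7.26e-08), 2.58-fold below the control mean. Hbb-bs was the most abundant symbol in each DTPA library, the 2nd in each control, the 5th with DFO and the 9th or 10th with SA. SA lay below DFO by 0.68 in log2 with no overlap (adjusted p = 2.53e-05).

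Hbb-bt, its near-identical neighbour, varied widely within the DTPA and SA groups. Control libraries were at 2181, 3329 and 2541 TPM and DFO libraries at 1118, 1559 and 1264 TPM. DTPA libraries were at 11222, 4004 and 2782 TPM, and SA libraries at 725, 3230 and 1140 TPM. DTPA replicate 1 and SA replicate 2 thus stood several times above the other libraries of their groups, while their Hbb-bs values, 26156 and 7242 TPM, lay close to those of the same groups' other libraries. Hbb-bt differed from control by 0.92 in log2 with DTPA (95% interval -0.29 to 2.13, adjusted p = 0.163), by -1.02 with DFO (-2.23 to 0.18, adjusted p = 0.276) and by -0.93 with SA (-2.14 to 0.28, adjusted p = 0.263). None of these passed, and their intervals are too wide to show that the gene did not change. DFO libraries all lay below all control libraries, and a fit of only those 6 libraries called the same difference (adjusted p = 0.0171). Without DTPA replicate 1 the difference between DTPA and control was 0.34 (adjusted p = 0.581), and without SA replicate 2 that between SA and control was -1.54 (adjusted p = 0.0512).

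**Figure D2:**
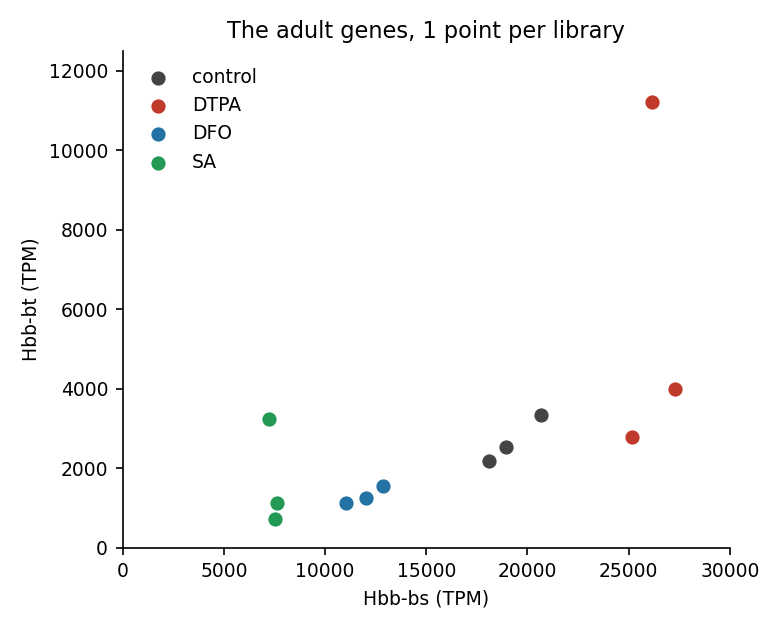
Hbb-bt against Hbb-bs, both in TPM, with 1 point per library and colours for the 4 groups. DTPA replicate 1 at 11222 TPM and SA replicate 2 at 3230 TPM of Hbb-bt stand above the libraries that match them in Hbb-bs.

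Hbb-bt was 12.2% ± 1.59 (SD, n = 3) of the adult beta-like TPM in control and 9.84% ± 0.864 with DFO. With DTPA it was 17.6% ± 10.9 and with SA 17.6% ± 11.7, where the single libraries named above reached 30.0% and 30.8%. The summed TPM of the 2 adult genes depends only slightly on how reads were split between them, through their exon lengths of 768 and 703 bases. Reads that fit both and were dropped would be missing from that sum and from the shares taken over it. That sum was 21918 ± 1894 TPM in control, 32216 ± 4777 with DTPA, 13288 ± 1118 with DFO and 9151 ± 1173 with SA. Leaving out DTPA replicate 1, the sum over the other 2 DTPA libraries was 29635 TPM.

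DTPA changed many genes, and each count of members is given beside the share of all genes that did the same. Of the 4 members that did not depend on DTPA to pass the filter, Hbb-y, Hbb-bh1 and Hbb-bs were higher with DTPA, where 23.5% of all genes tested were called higher and 25.5% had every DTPA library above every control library. The same 3 were lower with DFO, where 2.28% of genes were called lower and 6.47% did not overlap in that direction, and lower with SA, where the shares were 6.75% and 11.7%. Their size differed more than their direction. With DTPA Hbb-bh1 and Hbb-y held the 2 highest changes of 11917 and Hbb-bs was 1592nd from the top. With DFO Hbb-bh1 was 18th from the lowest, Hbb-y 30th and Hbb-bs 132nd. With SA Hbb-y was lowest, Hbb-bh1 2nd lowest and Hbb-bs 26th lowest. Over the alternative settings listed below, the SA change ranged from -4.57 to -1.84 for Hbb-y and from -2.85 to -2.40 for Hbb-bh1. Which of these 2 fell more with SA therefore depended on the setting.

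**Figure D3:**
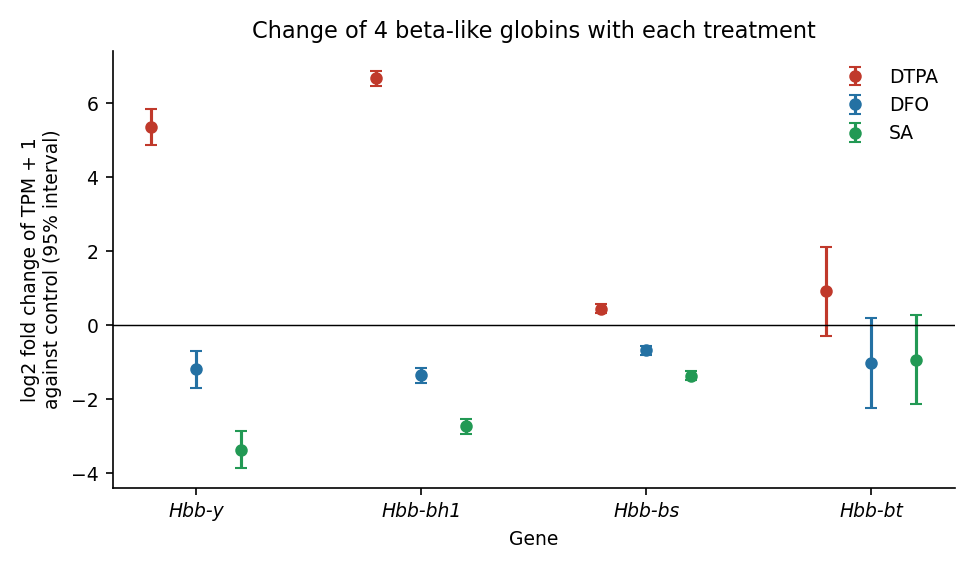
Change of Hbb-y, Hbb-bh1, Hbb-bs and Hbb-bt against control for each treatment, as the log2 fold change of TPM + 1 from limma, with bars for 95% intervals. Intervals of the first 3 genes exclude 0 for every treatment, and those of Hbb-bt include it.

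Between treatments the same order, DTPA above DFO above SA, held for the embryonic genes and for Hbb-bs. DTPA exceeded DFO by 8.04 in log2 for Hbb-bh1 (adjusted p = 8.31e-14), 6.55 for Hbb-y (adjusted p = 2.65e-10), 1.13 for Hbb-bs (adjusted p = 8.37e-09) and 1.94 for Hbb-bt (adjusted p = 0.00829), where 19.6% of genes were called higher and 21% had no overlap in that direction. DTPA exceeded SA by 9.42 for Hbb-bh1 (adjusted p = 1.89e-14), 8.72 for Hbb-y (adjusted p = 2.13e-11), 1.81 for Hbb-bs (adjusted p = 1.36e-10) and 1.85 for Hbb-bt (adjusted p = 0.0106), where the shares were 20.1% and 21.5%. The Hbb-bt differences fell to 1.36 (adjusted p = 0.0333) and 1.27 (adjusted p = 0.0437) without DTPA replicate 1. For Hbb-bt the DTPA and SA libraries overlapped, as DTPA replicate 3 (2782 TPM) lay below SA replicate 2 (3230 TPM). In the comparison of DFO with SA, where 7.22% of genes were called higher with DFO and 16.6% had no overlap in that direction, Hbb-y, Hbb-bh1 and Hbb-bs were higher with DFO, as given above. Hbb-bt differed by -0.09 (95% interval -1.30 to 1.11, adjusted p = 0.943).

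The share of embryonic transcripts in the beta-like total describes these shifts in 1 number per library, with no test, since 3 libraries against 3 cannot give an exact p below 0.1. For this share Hbb-bh2 and Hbb-bh0 were counted with Hbb-y and Hbb-bh1 as embryonic members. Embryonic members together were 0.436% ± 0.0376 (SD, n = 3) of beta-like TPM in control, with a range of 0.401% to 0.476%. With DTPA they were 22.0% ± 2.87, from 19.4% to 25.1%. With DFO they were 0.284% ± 0.0486 and with SA 0.133% ± 0.0262. The ranges of the 4 groups did not overlap. Among the embryonic members Hbb-bh1 made up nearly all of it, with 20.3% ± 2.68 of the beta-like total in DTPA against 1.59% ± 0.186 for Hbb-y, 0.0452% for Hbb-bh0 and 0.0140% for Hbb-bh2.

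The share of Hbb-bs fell from 87.5% ± 1.55 in control to 64.1% ± 6.72 with DTPA although its own level was higher there. The embryonic sum went from 95.5 ± 2.02 to 8959 ± 404 TPM. In DTPA replicate 1 the Hbb-bs share was 56.4%, with Hbb-bt at 24.2%, against 68.5% and 67.5% in replicates 2 and 3. With DFO and SA, where Hbb-bs itself was lower, its share was 89.9% ± 0.834 and 82.3% ± 11.7, and the spread with SA follows Hbb-bt in replicate 2. The ratio of Hbb-bh1 to Hbb-y TPM was 5.38 ± 0.485 in control and 12.8 ± 0.465 with DTPA, so the more abundant gene of the pair gained more. With DFO the ratio was 5.88 ± 3.68, and with SA it was 22.1 ± 7.84, resting on 2 or 3 Hbb-y reads per library.

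**Figure D4:**
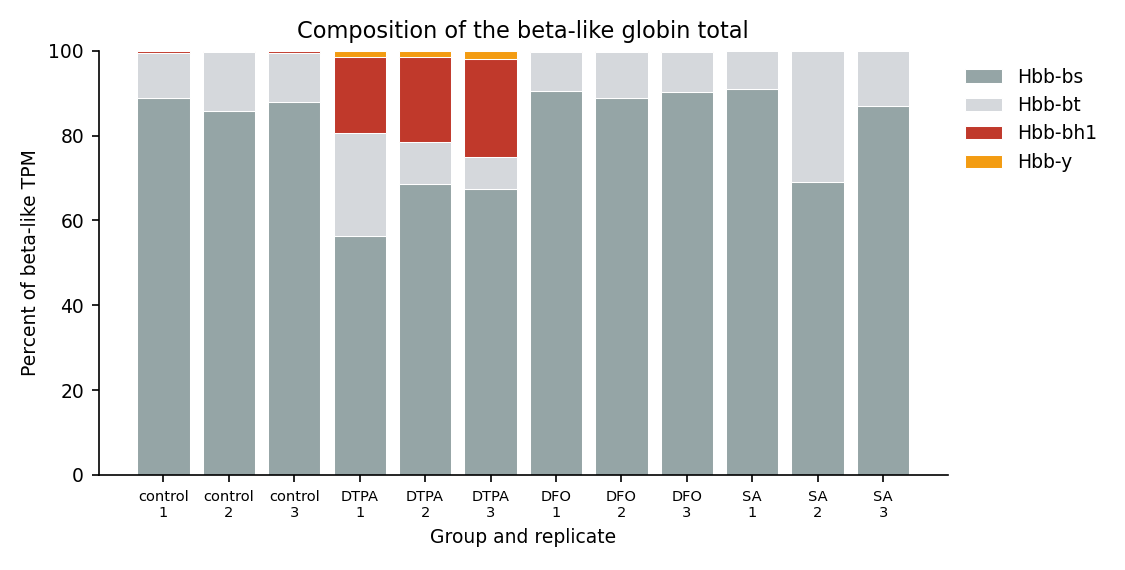
Composition of the beta-like globin total in each of the 12 libraries, as percent of beta-like TPM, stacked by gene. Hbb-bh2 and Hbb-bh0 are counted in the total and are too small to draw, and the embryonic part is visible at this scale in the 3 DTPA libraries, at 19.4% to 25.1%.

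Beta-like transcripts together took 2.20% ± 0.189 of all TPM in control, 4.12% ± 0.468 with DTPA, 1.33% ± 0.112 with DFO and 0.916% ± 0.117 with SA. The alpha-like genes on chromosome 11, whose chains pair with the beta-like ones, varied less. Their sum was 14986 ± 920 TPM in control, 12257 ± 336 with DTPA, 11651 ± 635 with DFO and 11354 ± 384 with SA. The ratio of beta-like to alpha-like TPM was 1.47 ± 0.0618 in control, 3.36 ± 0.338 with DTPA, 1.15 ± 0.159 with DFO and 0.808 ± 0.112 with SA, and the 4 ranges did not overlap. The ratio of Hbb-bs to Hba-a1, the most abundant adult pair, gave the same order of groups without Hbb-bt, at 1.66 ± 0.0757, 2.59 ± 0.194, 1.31 ± 0.0803 and 0.888 ± 0.0461. Leaving out Hbb-bt does not remove the doubt about the split of reads, as 65.8% of the 50-base windows of Hbb-bs occur in Hbb-bt. Sharing of windows between Hba-a1 and Hba-a2 was not checked.

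**Figure D5:**
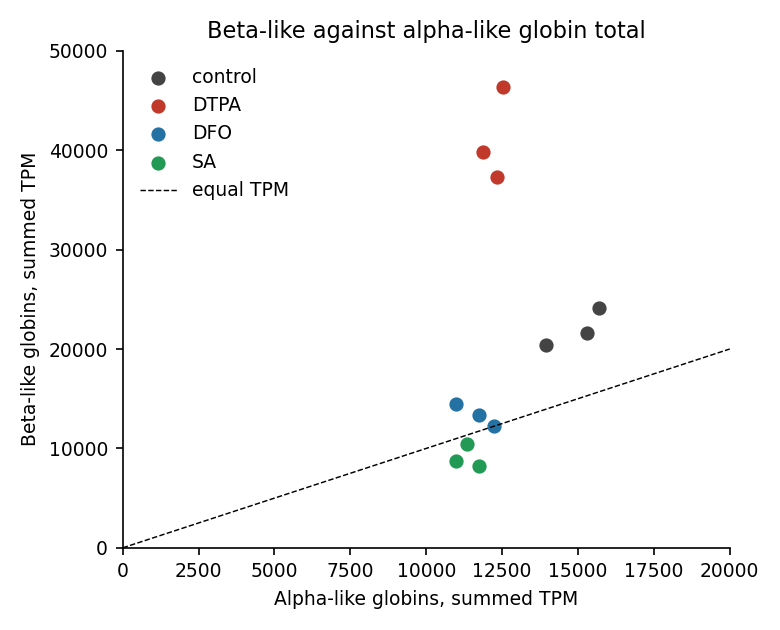
Summed beta-like against summed alpha-like globin TPM, 1 point per library, with a dashed line at equal TPM. The ratio is 3.02 to 3.70 in the DTPA libraries and 0.702 to 0.925 in the SA libraries, which all lie below the line.

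Of the 5 alpha-like genes, Hba-x, the embryonic one, changed in the same directions against control as Hbb-y and Hbb-bh1. It was at 7.85 ± 0.722 TPM in control and 67.9 ± 7.37 with DTPA, a rise of 2.96 in log2 (adjusted p = 5.77e-08). It fell by 1.40 with DFO (adjusted p = 0.00110) and by 1.35 with SA (adjusted p = 0.000428). The adult gene Hba-a1 was 0.34 lower with DFO (adjusted p = 0.000490) and 0.46 lower with SA (adjusted p = 1.23e-05), smaller falls than those of Hbb-bs. Its difference of -0.19 with DTPA (adjusted p = 0.00126) shrank to -0.07 and was not called under median-of-ratios scaling (adjusted p = 0.273). Hba-a2, the other adult copy, was 0.73 lower with DTPA (adjusted p = 0.00419) and was not called with DFO or SA, although voom on recovered reads called it lower with DFO (-0.51, adjusted p = 0.00340). Its DFO libraries ranged from 1619 to 3140 TPM, and how reads were split between Hba-a1 and Hba-a2 was not checked. Of the theta-type genes, Hbq1a reached 1 TPM in all control libraries, in no DTPA or DFO library and in 1 SA library, so it is given without a test, with 11, 9 and 10 reads in control, 4, 1 and 0 with DTPA, 3, 2 and 0 with DFO and 3, 8 and 1 with SA. Hbq1b was 0.28 lower with DTPA (adjusted p = 0.0173), a call not made under that scaling (adjusted p = 0.169).

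Factors known to act on the beta-like locus were taken as a list of 54 genes, of which 49 were tested. With DTPA 12 were higher, 26 lower and 11 not called, where 23.5% and 42.1% of all genes were called higher and lower. The list's median was -0.12 in log2 against -0.11 for the genes tested. Median-of-ratios scaling moved the latter to -0.0034 and the counts to 18 higher and 22 lower, where 3784 and 3940 of 11915 genes were called. With DFO 6 were higher and 4 lower (1 and 8 under that scaling), where 8.39% of all genes were called higher and 2.28% lower (420 and 654 genes under that scaling). With SA 12 were higher and 6 lower (9 and 15), where 15.4% of all genes were called higher and 6.75% lower (1107 and 1661), so the small changes of this list change with the scaling. The directions of Hbb-y, Hbb-bh1, Hbb-bs and Hbb-bt against control did not change with it.

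The 4 tested factors that changed most with DTPA at 5 TPM or more were all lower. Uhrf1, which maintains DNA methylation, went from 28.3 ± 2.64 to 2.20 ± 0.495 TPM (log2 -3.20). Gata1 went from 2501 ± 68.6 to 1058 ± 25.5 TPM (-1.24), where reads of the disrupted gene and of the transgene cannot be told apart. Ezh2, the methyltransferase of Polycomb, went from 69.3 ± 1.85 to 35.2 ± 0.948 TPM (-0.96). Bcl11a, the repressor of embryonic globins, went from 6.22 ± 0.190 to 3.10 ± 0.123 TPM (-0.82, adjusted p = 1.49e-07). All 4 remained lower under median-of-ratios scaling.

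Bcl11a was higher than control where the embryonic genes were lower. It was at 8.34 ± 0.375 TPM with SA (log2 0.37, adjusted p = 0.000951) and at 7.40 ± 0.184 TPM with DFO (0.22, adjusted p = 0.0361), a call that was not made under median-of-ratios scaling (adjusted p = 0.105). Its part in the globin changes was not tested. With SA the other factors named by the same rule were Uhrf1 (-0.42), Cbfa2t3, a corepressor bound with GATA1 (0.35), and the arginine methyltransferase gene Prmt5 (0.28). With DFO they were Mta1 of the NuRD complex (0.26), Zbtb7a, another repressor of embryonic and fetal globins (0.20), and the small Maf gene Mafg (-0.18). The Zbtb7a difference with DFO was not called under median-of-ratios scaling (adjusted p = 0.0581). Zbtb7a and Mta1 were also higher with DTPA, by 0.24 (adjusted p = 0.000168) and 0.38 (adjusted p = 5.66e-05). Mafg differed by -0.07 with DTPA (adjusted p = 0.0413), a call not made under median-of-ratios scaling (adjusted p = 0.155). Klf1, the activator of adult beta-globin, was at 661 ± 2.08 TPM in control, 689 ± 16.2 with DTPA, 700 ± 8.43 with DFO and 636 ± 23.3 with SA, and passed in none of the 3 comparisons. It was named after its values were seen. Under median-of-ratios scaling Klf1 was 0.18 higher with DTPA (adjusted p = 0.000382) and 0.12 lower with SA (adjusted p = 0.0244), and with voom on recovered reads it was 0.13 higher with DTPA (adjusted p = 8.46e-05).

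Around the cluster little else was transcribed. Of 36 other annotated genes within 200 kb of a member, 31 are olfactory receptor genes or pseudogenes, and 32 of the 36 were at 0 in every library. Only Dnajc19-ps, a processed pseudogene beyond Hbb-y, reached a group mean of 1 TPM. It was at 60.1 TPM in control, 27.0 with DTPA, 59.8 with DFO and 61.9 with SA. Its mean was thus lower with DTPA, where 42.1% of all genes tested were called lower, and close to control with DFO and SA. Whether its reads come from another gene of like sequence was not tested.

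Across the 12 libraries, the profiles most like the members' were ranked by the root mean square distance between centred log2(TPM + 1) values, as a description over 4 groups of 3. Hbb-y and Hbb-bh1 were 0.67 apart. Outside the members Hba-x was nearest to both, at 1.62 from Hbb-y and 1.90 from Hbb-bh1, followed by Alpk3, a kinase gene, which went from 2.85 ± 0.412 TPM in control to 84.5 ± 2.15 with DTPA. Scamp5 (1.92) was the third for Hbb-y and Cpz (2.30) for Hbb-bh1. Hbb-bs lay closest to Srxn1, the sulfiredoxin gene, at 0.15, which was at 71.7 ± 3.66 TPM in control, 86.6 ± 1.56 with DTPA, 42.4 ± 0.784 with DFO and 30.7 ± 1.77 with SA. Ube2o (0.27) and Tubb2a (0.29) came next, and all 3 were nearer to Hbb-bs than its copy Hbb-bt was (0.72).

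Markers of other blood cells were few and low in all groups, and some were higher with DTPA. Of 13 erythroid markers 10 were lower and 2 higher with DTPA, where 42.1% and 23.5% of all genes were. Slc4a1, the anion exchanger of the red cell membrane, was at 718 ± 33.4 TPM in control and 45.5 ± 3.32 with DTPA, and Hemgn at 22.2 ± 0.327 and 1.10 ± 0.237. These were the largest falls of the list. The 2 higher markers were Alas2, at 2268 ± 17.9 TPM in control and 3002 ± 10.3 with DTPA, and Kel, at 11.1 ± 1.43 and 30.7 ± 1.41. Slc4a1, Hemgn, Alas2 and Kel were named after their values were seen. Hba-a1 and Hba-a2 hold most of the list's summed level. That summed TPM was 17181 to 17823 against 19916 to 21466 in control, 16434 to 17667 with DFO and 16448 to 17258 with SA. Of 10 megakaryocyte markers 4 were tested and 3 were higher with DTPA, with a sum of 36.5 to 45.8 TPM against 8.23 to 9.34 in control, 10.3 to 10.9 with DFO and 8.27 to 9.87 with SA. Most of that was Gp1ba (18.5 TPM) and Itgb3 (17.0 TPM), while Ppbp, Gp6 and Gp1bb were at 0 in every library and Pf4 was at 0.374 TPM or less in each group's mean. Of 12 mast and myeloid markers 2 passed the filter, Cd68 and, through its DTPA libraries alone, Hdc (2.59 TPM with DTPA), with sums of 4.87 to 5.05 TPM with DTPA and 2.11 to 4.04 elsewhere, and Mpo, Prtn3, Mcpt8, Fcer1a, Itgam and Lyz2 were at 0 with DTPA. Of 8 lymphoid markers only Cd79a passed the filter, through its DTPA libraries alone, with sums of 1.37 to 2.04 TPM against 0.361 to 0.900 elsewhere, and Cd3e, Cd4, Cd8a, Ms4a1, Il7r and Thy1 were at 0 with DTPA. The part of these markers in the globin changes was not tested.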

How the data were processed

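The authors deposited 1 table of TPM values for each of the 12 libraries, 55487 rows long and keyed by gene symbol. Per the labels' protocols the libraries were stranded mRNA libraries. Per the submitters' processing notes reads were handled with HISAT2 2.1.0, featureCounts, edgeR, FastQC and Trimmomatic 0.33, and the build was mm10. The annotation release and the strand and multi-mapping settings were not given in the sources used here, and reads that fit both Hbb-bs and Hbb-bt may have been dropped or assigned arbitrarily.

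Groups and replicate numbers came from the titles. For 114 repeated symbols the row with the highest mean was kept. TPM multiplied by GENCODE M21 exon length gave whole reads within 0.1 read for 98.76% to 98.96% of values of up to 200 reads. The 11917 genes that reached 1 TPM in 3 or more libraries were fitted as log2(TPM + 1) with limma 3.58.1 (R 4.3.3) over all libraries, with a mean-variance trend. The fit was tested on simulated data. Fold ratios are of group means. Intervals for read counts are exact (Clopper-Pearson), at 95%, and cover counting error only. Python 3.11.15, numpy 2.4.6, pandas 2.3.3, scipy 1.17.1 and matplotlib 3.10.9 were used.

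The members, lists, motifs, tests and alternatives were chosen with earlier results of these data known. Named were the members, the alpha-like genes, per treatment the 4 called regulators with the largest absolute change at 5 TPM or more in either group, neighbours at 1 TPM or more in a group, and the 3 most alike profiles (predicted models and pseudogenes left out). The alternatives changed the pseudocount (0.1 or 5), the filter (none, or 5 TPM), the scaling (median of ratios, or rescaled without globins), the test (voom on recovered reads, or a fit of the 6 libraries in a comparison), the block (replicate number), the libraries (leaving out 1 each time) and the shares (from reads, or without Hbb-bt).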

Additional observations from a re-analysis of the deposited data

How the results depend on the processing

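Over all alternatives and all 6 comparisons, 711 of the recomputed changes of members kept their direction and their side of the threshold, 13 turned direction or reached 0 with none called, and 2 gained a call, both for Hbb-bt. These were DTPA against control with voom on recovered reads (0.97, adjusted p = 0.0126) and DFO against control from only the 6 libraries compared (-1.02, adjusted p = 0.0171). The 13 were Hbb-bh0, Hbb-bh2 and Hbb-bt in comparisons that were not called. The 711 include Hbb-bh2 and Hbb-bh0, which are described above without a test. They also include settings that cannot turn a direction, since the log2 fold change itself stays the same. Such settings are the replicate block, another filter and leaving out a library of a group not compared. The total is therefore no measure of how robust the changes are. Leaving out 1 library at a time, Hbb-bh0 ranged from -0.3496 to 0.3664 for DFO against control, -0.3496 to 0.3634 for SA against control and -0.3634 to 0.3664 for DFO against SA, where it was also -0.0001 under median-of-ratios scaling. For DFO against SA, Hbb-bh2 ranged from 0 to 0.327 and Hbb-bt from -0.5604 to 0.5171. The embryonic share of beta-like TPM moved when Hbb-bt was left out, to 0.496% in control, 25.5% with DTPA and 0.162% with SA. With reads in place of TPM it was 0.352% in control, 18.6% with DTPA, 0.228% with DFO and 0.105% with SA, and the order of the groups was the same. Leaving out 1 library at a time, it ranged from 0.416% to 0.454%, 20.4% to 23.2%, 0.256% to 0.298% and 0.118% to 0.142% in the same order. The Hbb-bt share of adult TPM ranged from 11.3% to 12.8% in control, 11.4% to 21.4% with DTPA, 9.35% to 10.2% with DFO and 10.9% to 21.9% with SA.

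Same-numbered replicates did not deviate together (18 correlations between -0.043 and 0.054), and the main fit did not pair them. Whether they were grown or processed together is not given by the labels and cannot be told from these correlations. With the replicate block Hbb-y, Hbb-bh1 and Hbb-bs kept their calls, 3 members lower with DFO and 3 with SA, where 241 and 745 of 11917 genes were called lower, and the same 3 were higher with DTPA, where 2775 genes were. Depth limits Hbb-y with SA (7 reads in all), Hbb-bh2 and Hbb-bh0.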
